A study of Sus scrofa with 16 samples.

Results

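Tubular pig conceptuses, 13 to 45 mm long, were compared with small spherical conceptuses of 1 to 5 mm. A conceptus is the embryo together with its extraembryonic membranes, and at these stages most of its cells belong to the membranes. Arrays were assigned to a stage by the stage name in the sample title, which gave 4 tubular and 4 small spherical arrays, 8 of the 16 arrays in the study. The other 8 arrays held large spherical (6 to 11 mm) and filamentous (over 100 mm) conceptuses, 4 of each, and entered the statistical fit to estimate the spread between arrays. No treatment, genotype, breed or day of pregnancy is named for any group in the labels used here, so length and shape are what define the stages. Amplified RNA carrying a phosphorus-32 label was hybridised to a macroarray, a membrane spotted with products of porcine embryonic cDNA clones. It gave 1 intensity in arbitrary linear units for each probe and array. The labels do not say how many conceptuses were pooled in a sample or whether the 4 samples of a stage came from separate litters, and the p-values therefore reflect the spread among these samples alone, part of which may be technical.

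The pig blastocyst grows as a sphere, lengthens into a tube and then becomes a thread within a few days, before it attaches to the uterus. The outer epithelium, the trophectoderm, remodels during that time together with the endoderm beneath it, and it secretes the oestrogen by which the pig mother recognises pregnancy. Oestrogen synthesis starts when STAR moves cholesterol into the mitochondrion, after which CYP11A1 makes pregnenolone, CYP17A1 makes androgen precursors and CYP19A1, aromatase, makes oestrogen. Transforming growth factors beta are secreted ligands that signal through SMAD proteins, with SMAD4 as the shared partner, and take part in tissue remodelling and in contact between conceptus and uterus.

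The arrays of the 2 stages were similar in overall brightness, with medians of 66.1 to 68.3 for tubular and 62.8 to 69.1 for small spherical arrays. Spearman correlations across probes were 0.851 to 0.96 among tubular arrays, 0.841 to 0.937 among small spherical arrays and 0.794 to 0.955 between them. Small spherical replicate 3 correlated more closely with the tubular arrays (mean 0.930) than with the other small spherical arrays (mean 0.914), and results are given without it where that changes a call or moves a value by more than 1.5 times. The 4 arrays numbered 1, 1 in each stage, varied more about their stage means than most others, with weights of 0.413 to 0.713 when limma estimated a weight per array, so values from the 12 arrays numbered 2 to 4 are given beside some results. The highest value of an array was shared by 2 to 4 probes on small spherical arrays and by up to 8 on tubular arrays (8 at 377 on replicate 4, 5 at 491 on replicate 2 and 4 on replicate 1), so the brightest probes can be saturated in both stages. A whole conceptus mixes several tissues: a larger share of one cell type and more RNA per cell of that type cannot be told apart.

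Of 1014 probes, 4 were higher in tubular conceptuses at an adjusted p below 0.05 (0.394%), and no probe was lower at that threshold (0%). The test was limma with Benjamini-Hochberg adjustment over all probes. The 4 probes were those of STAR, of the ligand gene TGFB3, of the placental gene PLAC1 and probe 1010, which carries no gene symbol. At an unadjusted p below 0.05, 75 probes were higher (7.4%) and 41 were lower (4.04%). Complete separation of the arrays was also found more often upward: all 4 tubular arrays exceeded all 4 small spherical arrays for 46 probes (4.54%) and lay below all of them for 28 (2.76%). Differences above 1 on the log2 scale, which is a doubling, were measured for 37 probes, and differences below -1 for 10. Over all probes the balance ran the other way, with 413 positive and 601 negative differences and a median of -0.06. The comparison thus held few, large upward differences and many small downward ones (plot of difference against p-value).

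**Figure D1:**
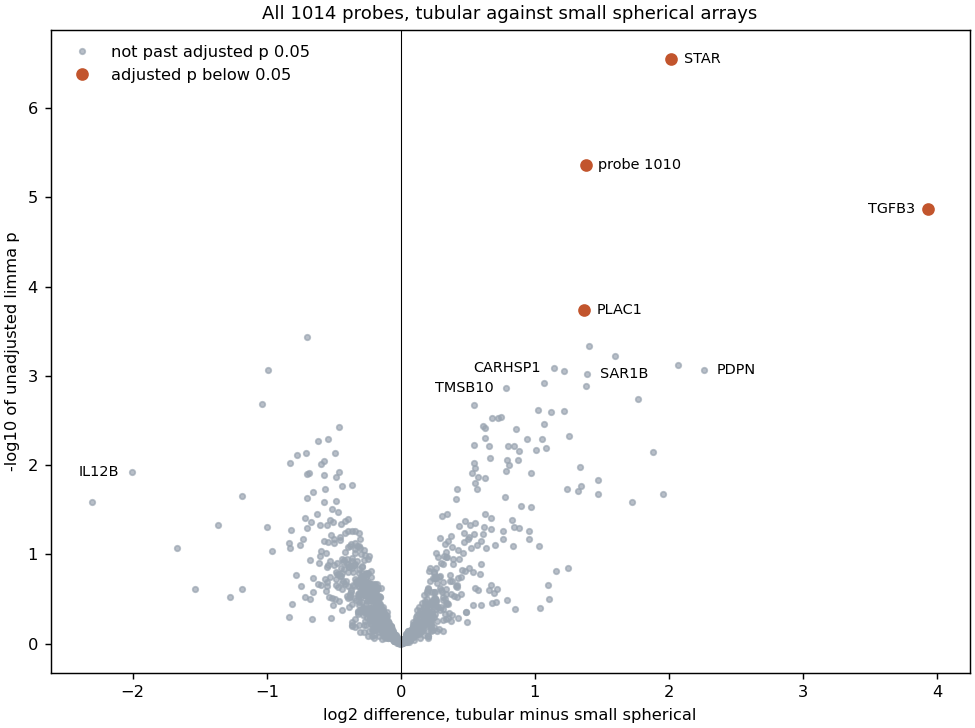
Each point is 1 of 1014 probes. The x axis is the log2 difference, tubular minus small spherical (4 arrays each), and the y axis is -log10 of the unadjusted limma p. The 4 probes with adjusted p below 0.05 are orange and all lie to the right of 0, and TGFB3 lies farthest right at 3.93.

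STAR had the smallest p-value of all probes. Its intensity was 38.7, 31.8, 50.8 and 38.8 on small spherical replicates 1 to 4 and 142, 187, 152 and 160 on the tubular arrays. The lowest tubular value was thus well above the highest small spherical one, and the 4 values of each stage lay close together. The means were 40.02 ± 7.89 and 160 ± 19.4 (SD, n = 4 each). STAR rose by 2.02 ± 0.23 (SE) on the log2 scale, a 4.04-fold difference (95% interval on the log2 scale 1.52 to 2.51, adjusted p = 0.00029). It passed the threshold under all 30 alternative settings, with differences of 1.77 to 2.19. On the 12 arrays numbered 2 to 4 alone, the difference was 2.06 with an adjusted p of 0.000979.

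TGFB3 showed the largest difference of the 4. On small spherical arrays it was dim, at 1.79, 3.20, 14.5 and 3.91, with replicate 3 the highest, whereas the tubular arrays read 72.8, 70.5, 68.2 and 50.2. No array of one stage entered the range of the other. Mean intensity was 5.86 ± 5.86 in small spherical and 65.4 ± 10.3 in tubular conceptuses (SD, n = 4 each). TGFB3 rose by 3.93 ± 0.62 on the log2 scale, 15.3-fold (95% interval 2.61 to 5.26, adjusted p = 0.00455). No blank feature gives a floor for dim probes here. On small spherical replicates 1 and 2, TGFB3 read exactly the same values as the dim IL2, IL4 and IL10. On replicate 4 it read exactly the same value as ESR2 and GCM1. Some probes read lower on these arrays, such as PGR at 1.25 on replicate 1 and CYP17A1 at 3.00 on replicate 2. The TGFB3 readings may thus lie near a floor. The size of this fold is therefore less certain than its direction. Adding 10 to every intensity before the log2 step reduced the difference to 2.30, and leaving out small spherical replicate 3 raised it to 4.52. It passed in all 29 alternatives that kept the probe.

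PLAC1, an X-linked gene named for its placental expression in trophoblast, was the weakest of the 4 calls. Small spherical arrays read 10.2, 9.39, 18.4 and 10.4 and tubular arrays 25.2, 35.0, 24.99 and 36.4. Again the stages did not overlap, and replicate 3 was the small spherical array nearest to the tubular ones. The means were 12.1 ± 4.20 and 30.4 ± 6.14 (SD, n = 4 each), a rise of 1.36 ± 0.28 on the log2 scale or 2.57-fold (95% interval 0.77 to 1.95, adjusted p = 0.046). The call was kept in 12 of 29 alternatives, and the adjusted p ranged from 0.000311 to 0.155. With 1 array left out at a time it was kept only without small spherical replicate 3 (adjusted p = 0.00645) or filamentous replicate 1, and it was lost under median centring (0.0537), cyclic loess (0.0538) and a fit to the 8 arrays alone (0.0817). The difference itself stayed positive throughout.

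Probe 1010 is not assigned to a gene in the annotation. It read 60.2, 46.2, 47.0 and 45.3 in small spherical and 129, 139, 121 and 124 in tubular conceptuses. The spread within each stage was small beside the gap, with means of 49.7 ± 7.04 and 129 ± 7.91 (SD, n = 4 each). The probe rose by 1.38 ± 0.20 on the log2 scale, 2.60-fold (adjusted p = 0.00219), and passed under all 30 alternatives.

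**Figure D2:**
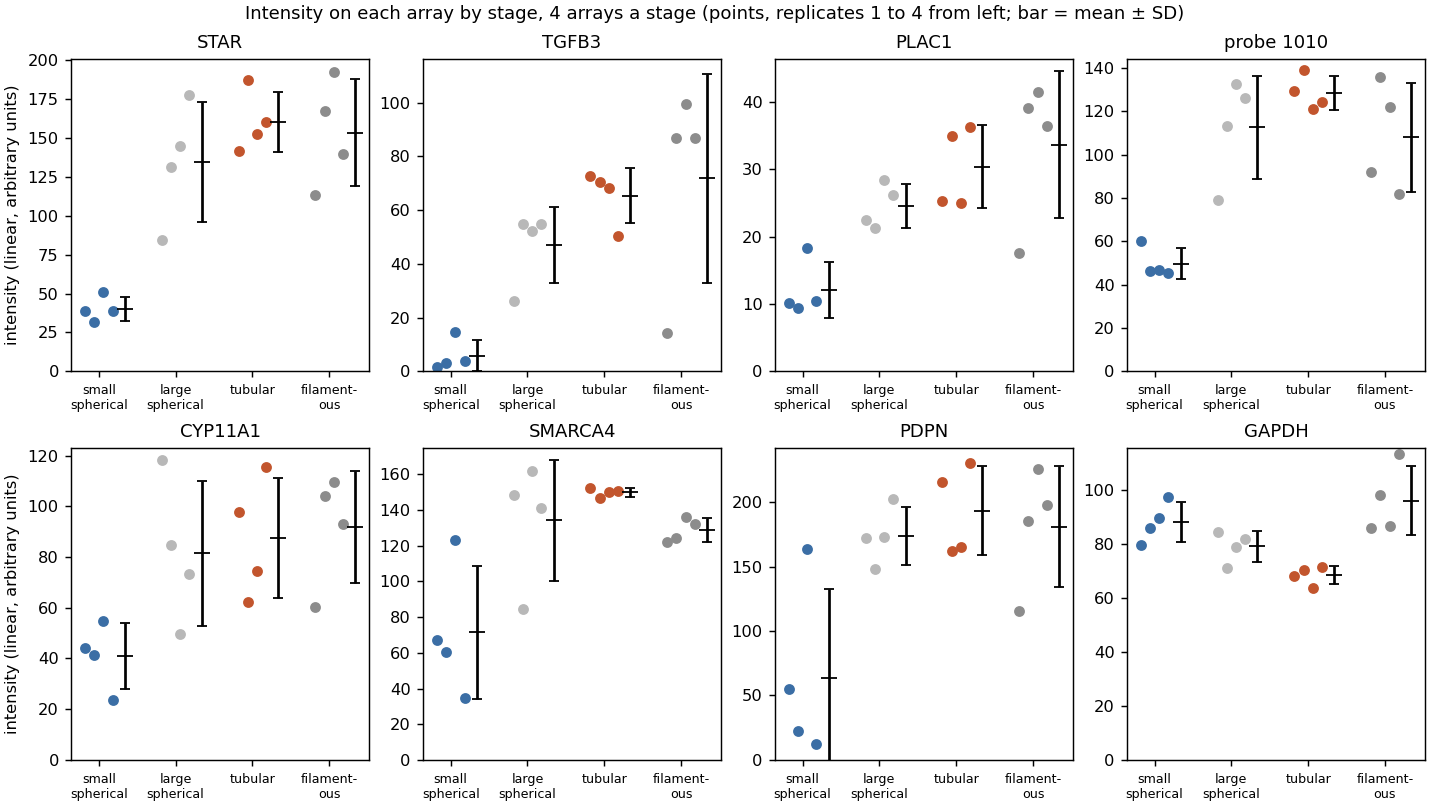
Linear intensity of 8 probes on each array, by stage, with points for replicates 1 to 4 from left to right and bars for the mean ± SD (n = 4); the lower end of the PDPN bar for small spherical arrays is cut off at 0. The 4 tubular STAR values lie between 142 and 187, all above the highest small spherical value of 50.8, while the PDPN values of the 2 stages meet because small spherical replicate 3 reads 163.

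The other genes of the steroid pathway also had positive differences, but none of them passed the threshold. CYP11A1, the side-chain cleavage enzyme, read 44.1, 41.4, 54.6 and 23.5 in small spherical and 97.7, 62.1, 74.6 and 115 in tubular conceptuses. All tubular arrays lay above all small spherical ones, and the difference was 1.12 ± 0.31 (adjusted p = 0.117). CYP17A1, which makes androgen precursors, was dim at 6.60, 3.00, 5.01 and 2.18 against 7.12, 14.2, 20.7 and 23.3. It did not overlap either, but its lowest tubular value nearly met the highest small spherical one, and the difference of 1.95 ± 0.76 had an adjusted p of 0.264. Aromatase, CYP19A1, was bright in both stages, at 173 ± 21.4 and 199 ± 45.1 (SD, n = 4 each), with overlapping arrays and a difference of 0.18 ± 0.18 (adjusted p = 0.80). Adding 10 to each intensity before the log2 step reduced the differences of CYP17A1 to 0.86 and of CYP11A1 to 0.94, so their sizes depend on how dim values are treated. The median difference of these 4 core genes, STAR included, was 1.54, against -0.06 over all probes. The list was chosen with earlier results of these data known. All 4 were positive in each of the 29 alternatives that kept them, with medians of 0.90, under the offset of 10, to 1.68.

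Enzymes and carriers linked to steroid conversion pointed the same way at a smaller size. HSD17B4, a peroxisomal enzyme that handles fatty acids and oestradiol, read 67.3, 76.5, 85.1 and 32.3 in small spherical and 120, 114, 96.2 and 95.1 in tubular conceptuses. The stages did not overlap, and the difference was 0.79 ± 0.27 (adjusted p = 0.198). CYB5A, a cytochrome b5 that can assist CYP17A1, averaged 93.2 ± 25.9 in small spherical and 139 ± 12.5 in tubular conceptuses (SD, n = 4 each), 0.61 ± 0.18 apart on the log2 scale (adjusted p = 0.134). Its arrays overlapped at small spherical replicate 1, which read 132, and leaving out that array had to widen the difference. It was then 0.79 and passed (adjusted p = 0.0324). In the other 15 omissions of a single array CYB5A did not pass, with adjusted p-values of up to 0.314. CYB5B and HSD17B12 differed by 0.84 and 0.33 and did not pass either. The median over the 4 genes was 0.70, and it lay between 0.47 and 0.79 over the alternatives.

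Within the list of TGF beta and other growth factors, TGFB3 was the only member of 11 to pass, against 0.394% of all probes. TGFB1 (0.16 ± 0.32) and TGFB2 (-0.16 ± 0.23) overlapped between stages and had differences smaller than their errors. All tubular arrays exceeded all small spherical ones for 2 of the 11 members, against 4.54% of all probes. Besides TGFB3 this was SMAD4, the partner shared by TGF beta and bone morphogenetic protein signals. It read 97.7, 86.1, 97.5 and 95.5 in small spherical and 157, 118, 142 and 134 in tubular conceptuses, so the small spherical arrays were nearly equal and the tubular arrays varied more. The difference of 0.54 ± 0.15 had an adjusted p of 0.115. Of the 11 members, 6 were higher and 5 lower, with a median of 0.07. On the 12 arrays numbered 2 to 4, 4 were higher and 7 lower, with a median of -0.16. The vascular growth factor VEGFA owed its positive difference (0.55 ± 0.45) to tubular replicate 1, which read 306 against a small spherical mean of 60.6, and BMP4, CTGF, IGF2, IGF2R, IGFBP7 and the receptor gene KDR all overlapped.

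Among trophectoderm and trophoblast markers, 1 of 8 passed, PLAC1, and 7 of 8 differences were positive with a median of 0.45. Over all probes 0.394% passed, and 413 of 1014 differences were positive with a median of -0.06. This list too was chosen with earlier results of these data known. PDPN, podoplanin, a membrane glycoprotein of epithelia, read 54.8, 22.2, 163 and 12.6 in small spherical and 215, 162, 165 and 230 in tubular conceptuses. The small spherical arrays ranged over more than the whole tubular spread, and replicate 3 alone reached the tubular range. The difference of 2.26 ± 0.55, 4.80-fold, had an adjusted p of 0.0743. Without small spherical replicate 3 it was 2.94 and passed (adjusted p = 0.00064). Without replicate 4, the lowest of the 4, it was 1.71 and did not pass (adjusted p = 0.177). SFN, an epithelial 14-3-3 protein, differed by 0.60 ± 0.31 (adjusted p = 0.498). Keratins of simple epithelium were measured in both stages at similar intensity: KRT18 averaged 269 ± 39.9 and 275 ± 26.6, KRT19 93.6 ± 26.6 and 107 ± 16.8, and KRT8 19.5 ± 4.60 and 24.1 ± 6.42 (SD, n = 4 each). CDH1, the epithelial cadherin, likewise averaged 89.6 ± 17.2 and 87.5 ± 16.4. GCM1, a trophoblast transcription factor, was too dim to compare, at 2.70 ± 1.03 and 7.12 ± 4.99.

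Of the genes in the core steroid, TGF beta and trophoblast lists, 6 stood among the 15 higher genes with the smallest p: STAR, TGFB3, PLAC1, PDPN, SMAD4 and CYP11A1. These lists hold 4, 11 and 8 of the 637 tested genes with a single symbol. They were chosen with earlier results of these data known, so the count of 6 is no test of them. The remaining 9 of the 15 higher genes served other functions and none of them passed. CARHSP1, a calcium-regulated RNA-binding protein, read 57.5, 60.6, 90.8 and 36.6 in small spherical and 141, 126, 140 and 110 in tubular conceptuses. Its stages did not overlap (1.14 ± 0.27, adjusted p = 0.0743). SMARCA4, the ATPase of SWI/SNF chromatin remodelling complexes, was uniform in tubular conceptuses at 152, 147, 150 and 150 and scattered in small spherical ones at 67.3, 60.6, 123 and 34.4. Here too the stages were separate (1.22 ± 0.29, adjusted p = 0.0743). SAR1B, a GTPase that builds the vesicles leaving the endoplasmic reticulum, read 198, 140, 316 and 82.4 against 471, 491, 390 and 377. Every tubular array was higher, by 1.39 ± 0.34 on average (log2 scale, adjusted p = 0.0745), and tubular replicates 2 and 4 read the highest value of their arrays, where signals can be saturated.

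Lipid and membrane genes appeared next. ACSL3, an acyl-CoA synthetase that makes long-chain fatty acids ready for use, read 20.9, 31.8, 45.1 and 43.2 in small spherical and 77.3, 127, 57.4 and 106 in tubular conceptuses. All tubular arrays were higher, by 1.38 ± 0.35 on the log2 scale (adjusted p = 0.0863). The other members of the cholesterol and fatty acid list did not follow: 4 of 10 were higher and 6 lower, with a median of -0.03. PTGES, a prostaglandin E synthase, read 54.8, 47.8, 80.3 and 56.2 against 140, 108, 86.5 and 84.5, also without overlap (0.80 ± 0.27, adjusted p = 0.182). The lysosomal protease CTSC read 42.3, 31.8, 41.2 and 47.5 against 61.5, 99.6, 55.2 and 80.4 (0.84 ± 0.26, adjusted p = 0.156). It was the 1 gene of 20 in the list of matrix, integrins and proteases whose tubular arrays were all higher. That is close to the share over all probes, 4.54%. The list's median was 0.05, with 12 higher and 8 lower, and -0.09 with 6 higher and 14 lower on the 12 arrays numbered 2 to 4. FN1, LAMB1, ITGB1 and MMP9 overlapped with differences smaller than their errors.

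Genes of the actin cytoskeleton and of membrane binding had a few positive members. TMSB10, a thymosin that binds monomeric actin, read 82.5, 70.1, 77.5 and 46.4 in small spherical and 161, 97.5, 118 and 99.1 in tubular conceptuses (0.79 ± 0.20, adjusted p = 0.0863). CALD1, caldesmon, read 149, 137, 144 and 80.2 against 229, 156, 178 and 183 (0.58 ± 0.21, adjusted p = 0.206). Neither gene overlapped between stages. They were the 2 of 15 genes in the cytoskeleton list whose tubular arrays were all higher, against 4.54% of all probes. The related TMSB4X (0.24 ± 0.17), the actin genes ACTG1 and ACTA2 and the tubulin genes TUBA1A and TUBA1B all overlapped, and the list of 15 had 6 positive and 9 negative differences with a median of -0.05. Annexins bind membranes in the presence of calcium. All 5 measured annexin and S100 genes had positive differences (median 0.46), against 413 of 1014 probes, and none passed. ANXA2 read 69.1, 98.9, 92.7 and 73.7 in small spherical and 118, 125, 144 and 102 in tubular conceptuses, separate by a narrow margin (0.55 ± 0.20, adjusted p = 0.229), and ANXA5 overlapped (0.34 ± 0.15).

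The last higher genes belonged to stress, purine, metal and autophagy functions. SOD1, the cytosolic superoxide dismutase, read 103, 115, 129 and 65.0 in small spherical and 181, 154, 150 and 177 in tubular conceptuses (0.72 ± 0.21, adjusted p = 0.121). SLC39A2, a zinc importer, read 46.8, 35.0, 54.6 and 34.4 against 86.4, 64.2, 66.0 and 67.3 (0.75 ± 0.21, adjusted p = 0.121). GABARAPL2, an autophagy protein of the ATG8 family, read 58.4, 47.8, 41.2 and 22.4 against 136, 62.1, 85.4 and 60.8 (1.02 ± 0.28, adjusted p = 0.117). These 3 genes did not overlap between stages. ADSL, an enzyme of purine synthesis, did: small spherical replicate 3 read 291, above tubular replicate 4 at 265, and the difference was 1.22 ± 0.34 (adjusted p = 0.117). Tubular replicate 2 read 491 for ADSL, the highest value of its array. HSP90AB1, a cytosolic chaperone, had the widest scatter, with 107, 160, 434 and 25.7 in small spherical conceptuses. Tubular arrays read 372, 491, 515 and 377, of which 3 were the highest values of their arrays (1.88 ± 0.60, adjusted p = 0.163).

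Small spherical replicates 3 and 4 lay at opposite ends of many of these genes. Among the 75 probes higher at an unadjusted p below 0.05, replicate 4 was the lowest small spherical array for 43, against 291 of all 1014 probes, and replicate 3 was the highest for 46, against 222 of 1014. Without replicate 3, 16 probes passed the threshold, all higher in tubular conceptuses, and CARHSP1, PDPN, SMARCA4, SAR1B, ADSL and HSP90AB1 were among them. Their differences were then 1.35 for CARHSP1 (adjusted p = 0.0141), 1.53 for SMARCA4 (0.00507), 1.70 for SAR1B (0.00906), 1.54 for ADSL (0.0141) and 2.51 for HSP90AB1 (0.016). Without both replicates, 14 probes passed, again all higher. STAR, TGFB3, PLAC1 and probe 1010 passed in both of these reduced sets. Replicate 3 was the highest small spherical array for CARHSP1, PDPN, SMARCA4, SAR1B, ADSL and HSP90AB1. Leaving it out therefore had to widen their differences and is no check of them. Without replicate 4 alone, 4 probes passed, all higher: STAR, TGFB3, probe 1010 and probe 208. PLAC1 and the other genes named here did not pass then.

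No gene fell at the adjusted threshold, so the 15 lower genes with the smallest p are given by their values, a gene with several probes being represented by its brightest. Apart from the dim IL12B, their differences lay between -0.37 and -0.71, against 0.54 to 3.93 for the 15 higher genes. AHSG, fetuin-A, a secreted carrier protein made by liver and yolk sac, read 72.7, 73.3, 71.8 and 62.8 in small spherical and 38.8, 49.6, 61.7 and 44.5 in tubular conceptuses. The stages were separate by a margin of about 1 unit (-0.55 ± 0.17, adjusted p = 0.149). YWHAH, a 14-3-3 adaptor protein, read 187, 123, 139 and 147 against 81.8, 123, 101 and 83.6 (-0.62 ± 0.19, adjusted p = 0.15). BNIP3L, a mitophagy receptor of the outer mitochondrial membrane, read 207, 208, 192 and 250 against 129, 175, 146 and 160 (-0.49 ± 0.16, adjusted p = 0.163). For both genes every tubular array was lower, though YWHAH only barely.

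SYNCRIP, an RNA-binding protein of the hnRNP family, is outside these 15 and was singled out after its values were seen, because its probes disagreed. The dimmer probe, number 263, had a smaller p than any of the 15. It read 37.0, 35.0, 27.9 and 38.8 in small spherical and 13.9, 16.3, 20.7 and 16.8 in tubular conceptuses, all lower (-1.04 ± 0.28, adjusted p = 0.115). The brighter probe, number 368, overlapped, with means of 123 ± 10.2 and 121 ± 31.5 (SD, n = 4 each; -0.06 ± 0.24, adjusted p = 0.98).

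Lower values were also measured for genes of transport, sterol synthesis and adhesion. RAB11A, a GTPase of recycling endosomes, read 91.4, 57.4, 64.1 and 71.5 in small spherical and 36.6, 55.9, 48.7 and 49.4 in tubular conceptuses (-0.57 ± 0.19, adjusted p = 0.177). NSDHL, an enzyme of late cholesterol synthesis, read 107, 82.9, 100 and 84.6 against 56.9, 64.2, 61.7 and 49.4 (-0.69 ± 0.24, adjusted p = 0.198). Neither overlapped. NUTF2, the nuclear import factor for Ran, read 123, 70.1, 119 and 102 against 66.0, 62.1, 72.5 and 49.4 and overlapped at 1 array (-0.71 ± 0.23, adjusted p = 0.163). CTNNB1, beta-catenin, which joins cadherins to actin and carries Wnt signals, read 274, 331, 291 and 215 against 249, 172, 193 and 178, with 3 of 4 tubular arrays below all small spherical ones (-0.49 ± 0.17, adjusted p = 0.206). APOE, a lipid carrier, overlapped likewise, averaging 102 ± 15.4 and 75.1 ± 8.29 (SD, n = 4 each; -0.44 ± 0.16, adjusted p = 0.24).

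GAPDH, a glycolytic enzyme often used as a reference gene, was lower on every tubular array. It read 79.8, 86.1, 89.9 and 97.7 in small spherical and 68.3, 70.5, 63.9 and 71.4 in tubular conceptuses, a difference of -0.37 ± 0.14 (adjusted p = 0.235). The other members of the glucose list overlapped: LDHB at -0.21 ± 0.24, ENO1 at 0.06 ± 0.18, and the glucose transporters SLC2A3 at -0.11 ± 0.45 and SLC2A1 at 0.03 ± 0.18. CEBPZOS was separate between stages at lower intensity, with 29.8, 25.4, 20.3 and 17.0 against 16.2, 14.2, 14.2 and 15.2 (-0.60 ± 0.20, adjusted p = 0.182). HSPA8, a constitutive heat shock protein of the HSP70 family, averaged 42.5 ± 3.96 and 31.1 ± 5.98 (SD, n = 4 each; -0.46 ± 0.16, adjusted p = 0.198). IL12B, a cytokine subunit, read at most 3.20 on any of the 8 arrays, so its difference of -2.01 ± 0.70 (adjusted p = 0.198) rests on values near the lowest of the table.

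**Figure D3:**
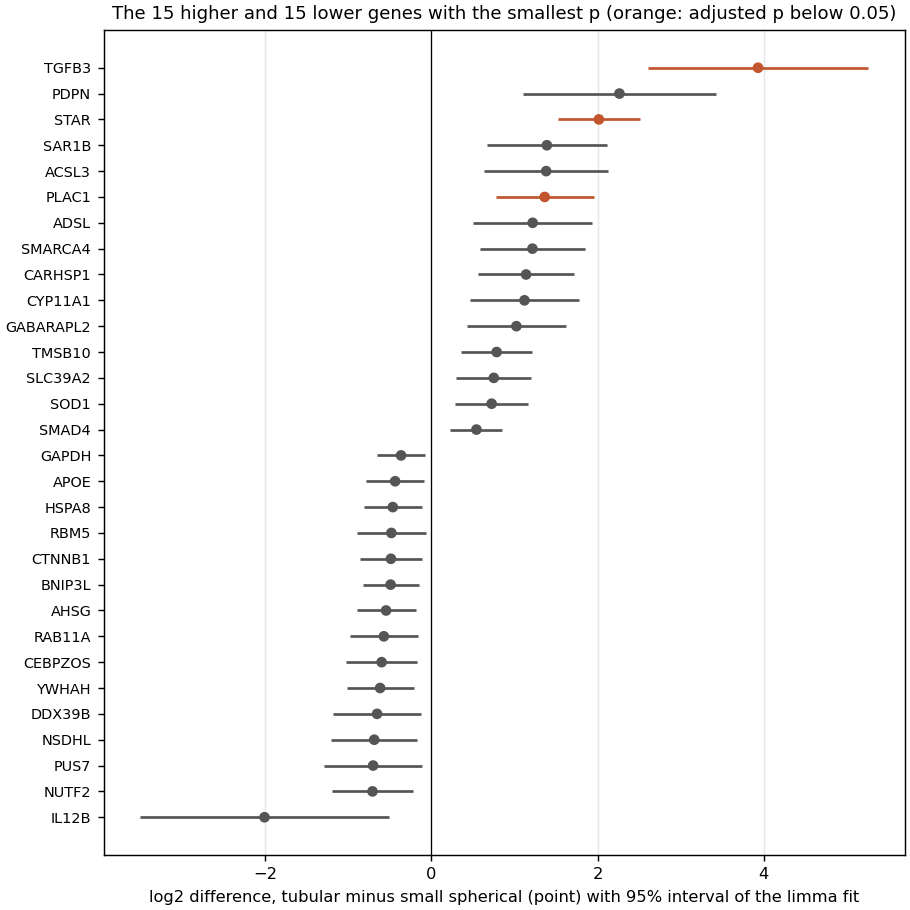
Log2 difference, tubular minus small spherical, with the 95% interval of the limma fit (4 arrays a stage), for the 15 higher and 15 lower genes with the smallest p. STAR, TGFB3 and PLAC1, in orange, passed the adjusted threshold, and no lower gene did.

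Among lists of 4 or more genes, negative differences were most frequent in RNA splicing and RNA binding. Of 20 measured members 18 were lower, 2 were higher and none passed, and the median difference was -0.35 against -0.06 over all probes. In 4 of the 20 every tubular array lay below every small spherical array, against 2.76% of all probes. DDX39B, a helicase of splicing and mRNA export, read 51.2, 38.2, 41.2 and 54.1 in small spherical and 20.7, 30.9, 33.6 and 33.1 in tubular conceptuses (-0.65 ± 0.25, adjusted p = 0.254). RBM5, a regulator of alternative splicing, read 96.8, 86.1, 102 and 93.3 against 69.4, 68.4, 72.5 and 60.8 (-0.48 ± 0.19, adjusted p = 0.296). In both genes the gap between stages was wider than the spread within the tubular arrays of RBM5 but not of DDX39B. PTBP1, which binds pyrimidine tracts, averaged 19.4 ± 0.593 and 14.6 ± 2.77, and SNRPD1, a core protein of spliceosomal snRNPs, averaged 189 ± 6.62 and 155 ± 17.7 (SD, n = 4 each); their adjusted p-values were 0.604 and 0.708. The 2 higher members were the splicing factor SF3B5 (0.45 ± 0.32) and the helicase DDX47 (0.24 ± 0.25). Over the alternatives, 16 to 18 members were lower, and the median ranged from -0.42 to -0.13, the weakest value being that of the 12 arrays numbered 2 to 4. Outside the list, the pseudouridine synthase PUS7 averaged 25.01 ± 2.79 and 16.1 ± 5.83 (-0.70 ± 0.28, adjusted p = 0.279).

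Other housekeeping lists leaned downward by less. Of 23 cytosolic ribosomal protein genes 20 were lower, with a median of -0.16, and 17 to 21 were lower over the alternatives. None passed, and RPL13A stood apart from the rest at 0.78 ± 0.31 (adjusted p = 0.279). Of 30 chaperone, proteasome and ubiquitin genes 23 were lower (median -0.15) while HSP90AB1 had the largest positive difference. Among 23 mitochondrial genes 17 were lower (median -0.11). In 1 of the 23 the stages were separate, no more than the shares over all probes, 4.54% upward and 2.76% downward. It was higher: DLD, a subunit shared by the pyruvate and other dehydrogenase complexes, read 47.7, 51.0, 39.3 and 47.5 in small spherical and 75.1, 72.5, 81.1 and 59.2 in tubular conceptuses (0.63 ± 0.23, adjusted p = 0.209). Translation factors were nearer to balance, with 8 of 14 lower and a median of -0.08. These medians lay below the -0.06 of all probes, of which 601 of 1014 were lower. Over the alternatives the ribosomal median was -0.23 to -0.09, and that of all probes -0.08 to -0.02.

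**Figure D4:**
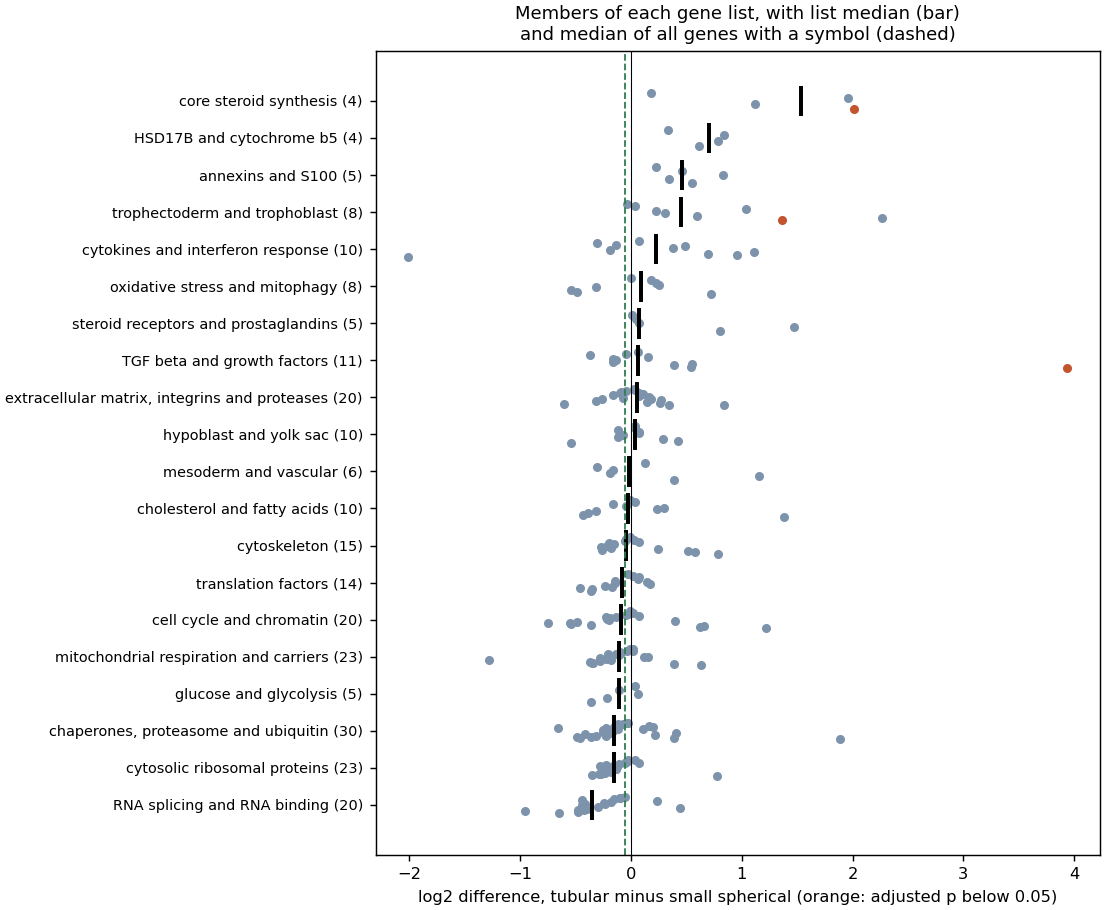
Each point is the log2 difference, tubular minus small spherical, of 1 gene (4 arrays a stage), by gene list, with the number of measured genes in brackets, the black bar at the list median and the dashed line at the median of all genes with a symbol. Only lists of 4 or more measured genes are drawn; among them core steroid synthesis has the highest median, 1.54, and RNA splicing and RNA binding the lowest, -0.35.

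Of 20 cell cycle and chromatin genes 14 were lower, with a median of -0.09, close to all probes (601 of 1014 lower, median -0.06). Without small spherical replicate 4, 10 of the 20 were lower and the median was 0.01. SMARCA4 was among the 15 higher genes with the smallest p. The mitotic genes CCNA2 (-0.75 ± 0.40), CCNB1 (-0.49 ± 0.36) and CENPF (-0.36 ± 0.17) had negative differences with overlapping arrays, and TOP2A was at -0.01 ± 0.23. HMGB1, a chromatin protein, had probes that disagreed: the brighter averaged 103 ± 34.4 and 157 ± 18.1 (0.66 ± 0.21, adjusted p = 0.156), while the second differed by -0.55 ± 0.41 (adjusted p = 0.733). CCNI, an atypical cyclin, differed by 0.63 ± 0.19 (adjusted p = 0.149). Among 8 genes of oxidative stress and mitophagy, 4 were higher and 4 lower. SOD1 and BNIP3L, in opposite directions, were the 2 whose stages did not overlap. Over all probes, 4.54% were separate upward and 2.76% downward.

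Receptors and immune ligands gave little that exceeded the spread between arrays. ESR2, oestrogen receptor beta, read 6.60, 12.6, 34.6 and 3.91 in small spherical and 18.4, 48.6, 24.99 and 29.9 in tubular conceptuses. Small spherical replicate 3 lay inside the tubular range, and the difference was 1.47 ± 0.57 (adjusted p = 0.264). Replicate 3 was the highest small spherical array, so leaving it out had to widen the difference, to 2.06 (adjusted p = 0.0525). Without replicate 4, the lowest, the difference was 1.01 (adjusted p = 0.564). The prostaglandin F receptor gene PTGFR (0.07 ± 0.23) and the progesterone receptor gene PGR (0.01 ± 0.80) had differences near 0 whose sign changed with the setting. IFNG, interferon gamma, which the pig trophectoderm secretes before attachment, averaged 155 ± 19.9 and 139 ± 39.8 (SD, n = 4 each) and overlapped. Of 10 cytokine and interferon response genes 6 were higher and 4 lower, with a median of 0.23. On the 12 arrays numbered 2 to 4, 4 were higher and 6 lower, with a median of -0.12. IL2, IL4, IL10, IL12A and IL12B were dim, with small spherical means of 1.98 to 2.47.

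Markers of other tissues were checked in the same comparison. The hypoblast and yolk sac list, 10 genes, had a median of 0.03 with 6 higher and 4 lower. AHSG alone was separate between stages, where 2.76% of all probes were separate downward. AFP, APOA1 and TF, which the yolk sac endoderm also secretes, overlapped (0.29 ± 0.24, -0.12 ± 0.25 and -0.12 ± 0.44). The 3 RBP4 probes all overlapped and differed by 0.42, 0.49 and 0.03. Of 6 mesoderm and vascular genes 3 were higher and 3 lower, and the brachyury gene T was dim in both stages, at 11.9 ± 1.02 and 9.74 ± 1.97 (SD, n = 4 each). The 1 epiblast gene measured, DPPA5, averaged 9.62 ± 5.11 and 12.1 ± 6.62. The 1 blood cell gene, the T cell receptor subunit gene CD3E, averaged 2.22 ± 0.546 and 1.32 ± 0.745, among the lowest intensities of the table. Of 3 endometrial genes 2 were higher, RBP4 (0.42) and PGR (0.01 ± 0.80), and 1 was lower, and all 3 overlapped. The lower one, the oxytocin receptor gene OXTR, read 15.5, 22.2, 23.1 and 22.4 against 13.9, 16.3, 12.03 and 15.2 (-0.53 ± 0.38, adjusted p = 0.708). The part of maternal cells in any difference was not tested.

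The large spherical stage lies between the 2 stages in length. The contrasts below share the small spherical or the tubular arrays with the comparison above, so their values are set side by side and are not independent of it. STAR averaged 135 ± 38.6 in large spherical and 153 ± 34.3 in filamentous conceptuses, TGFB3 47.0 ± 14.0 and 71.8 ± 38.9, PLAC1 24.6 ± 3.26 and 33.7 ± 10.9, and probe 1010 113 ± 23.8 and 108 ± 25.3 (SD, n = 4 each). For each of them the large spherical mean was already nearer to the tubular than to the small spherical mean. Tubular minus large spherical differences were 0.30 ± 0.23 for STAR, 0.52 ± 0.62 for TGFB3, 0.29 ± 0.28 for PLAC1 and 0.22 ± 0.20 for probe 1010. No probe passed between tubular and large spherical conceptuses (0%), where 33 probes had an unadjusted p below 0.05 (3.25%), whereas 4 probes (0.394%) passed between large and small spherical ones. Between filamentous and small spherical arrays, 9 probes passed (0.888%).

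The levels of the 15 higher and 15 lower genes at the other stages are given as a description (heat map of the 30 genes): the genes were chosen for their difference between small spherical and tubular arrays, and no test was made of their pattern over the stages. TMSB10 averaged 84.1 ± 7.86 and GABARAPL2 54.6 ± 4.17 in large spherical conceptuses, nearer to their small spherical means of 69.1 and 42.5 than to their tubular means of 119 and 86.1. BNIP3L and GAPDH returned in filamentous conceptuses to 218 ± 17.8 and 96.1 ± 12.8, at or above their small spherical means of 214 and 88.4, so tubular was the stage with their lowest mean. YWHAH and CEBPZOS stayed low there, at 89.6 ± 10.7 and 15.04 ± 2.25. DLD was level between small and large spherical conceptuses, at 46.4 ± 4.95 and 50.0 ± 18.5, and averaged 72.0 ± 9.25 in tubular and 79.8 ± 10.6 in filamentous ones.

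**Figure D5:**
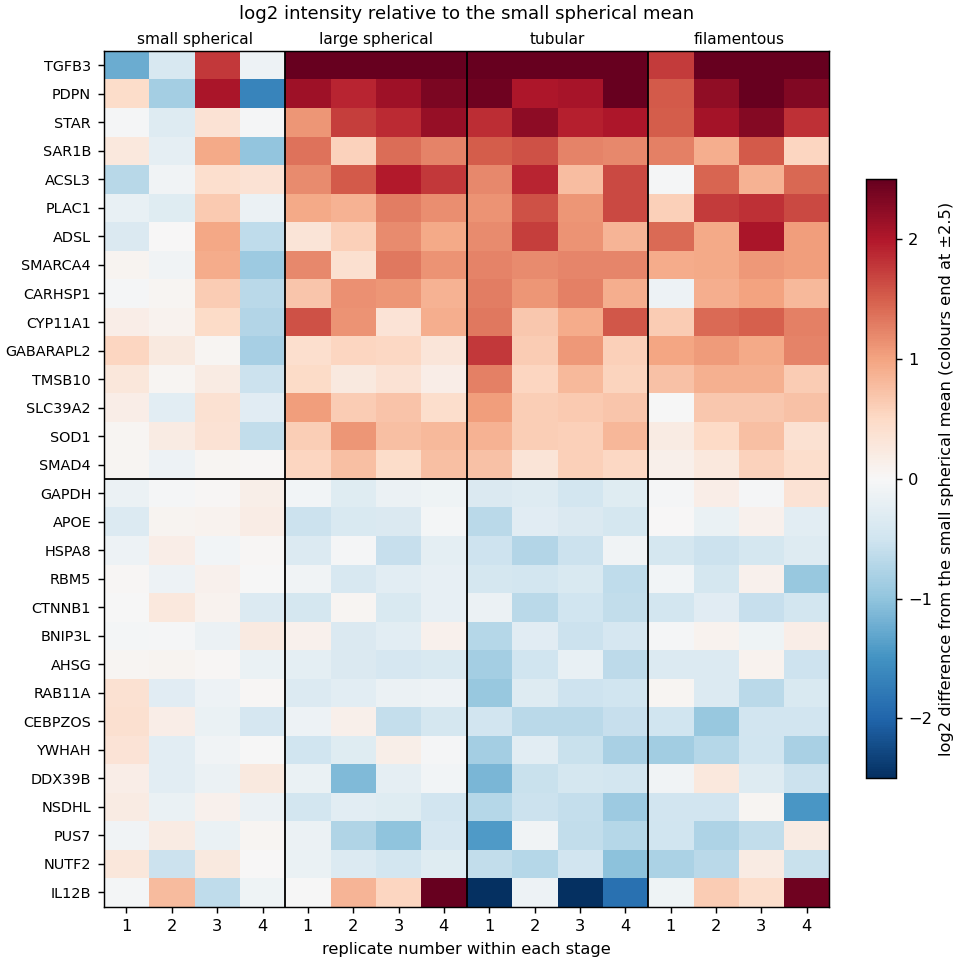
Log2 intensity of the 15 higher genes (above the line) and 15 lower genes (below it) on each of the 16 arrays, relative to the mean log2 of the 4 small spherical arrays, with colours ending at ±2.5. Small spherical replicate 3 is red for TGFB3 and PDPN, and the lower genes are mostly blue in the tubular columns.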

How the data were processed

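The deposited table held 1 linear intensity per probe and array for 1015 probes on 16 arrays, and all its columns were used (0 left out). Per the labels, RNA was extracted, amplified, labelled and hybridised to membranes; the scanning, background correction and normalization by which the authors made the deposited intensity values are not given in the sources used here. Array medians lay within 0.2 of each other on the log2 scale, so values were taken as already normalized and only transformed to log2. 1 probe with the same value on all arrays was left out, leaving 1014. In the platform annotation, 676 probes had 1 gene symbol, 15 had several and 324 had none; the latter are given by number. Of 673 single Entrez identifiers, 667 were found in the RefSeq gene table. Of 638 genes, 34 had several probes and are represented by the brightest. Coordinates and sequences are not given, since no genome build or sequence table was used here.

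Stages and replicate numbers came from the sample titles. Log2 intensity on all 16 arrays was modelled by stage, 1 mean each (R 4.3.3; limma 3.58.1 with lmFit, contrasts.fit and eBayes; two-sided tests; Benjamini-Hochberg over 1014 probes; threshold 0.05). Means and SDs are of linear intensity, and folds come from the log2 fit. The precision stated rests on the spread and number of the arrays, as no counts or background readings were used. Shared maxima and the lack of a measured floor limit the brightest and dimmest probes further. Named genes were every probe past the threshold, the 15 higher and 15 lower genes with the smallest p, and up to 3 members of each of 23 gene lists with the smallest p; further members were named after their values were seen, to complete a list. The members and lists were chosen with earlier results of these data known. Lists are described by counts and medians, with no set test. The fit was tested on simulated data. Alternatives were other normalizations, an offset of 10 before log2, leaving out the dimmest 25% of probes, the replicate number as a block, fits to fewer arrays, a term for the arrays numbered 1, weights per array, an intensity-dependent prior variance with robust moderation, and leaving out single arrays. Chosen after seeing the data were removal of a trend along probe number (loess, span 0.1) and leaving out small spherical replicates 3 and 4. Plots were drawn with matplotlib 3.10.9.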

Additional observations from a re-analysis of the deposited data

Results flagged for a closer look

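In each named gene and stage, the array farthest from the other 3 was checked by its gap relative to the range of the 4 log2 values, against the 95% critical value of Dixon's ratio. Chance alone marks about 1 in 20 such groups, and 9 of 152 stood out here, so the list below is about what chance gives. In small spherical conceptuses, probe 1010 read 60.2 on replicate 1 (next value 47.0), PLAC1 18.4 on replicate 3 (next 10.4), AHSG 62.8 on replicate 4 (next 71.8), CALD1 80.2 on replicate 4 (next 137), TAGLN2 19.1 on replicate 1 (next 44.3) and OXTR 15.5 on replicate 1 (next 22.2). In tubular conceptuses, SLC39A2 read 86.4 on replicate 1 (next 67.3), DDX1 4.86 on replicate 1 (next 28.8) and IL2 20.4 on replicate 2 (next 2.26). The array marked for PLAC1 was the small spherical one nearest to the tubular arrays, so leaving it out had to widen the difference. PLAC1 then passed (limma adjusted p = 0.00645), which is no check of the call. The call was lost when any other small spherical array, or any tubular array, was left out. Probe 1010 passed in every alternative.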

How the results depend on the processing

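STAR and probe 1010 passed in all 30 alternatives and TGFB3 in all 29 that kept it; PLAC1 passed in 12 of 29. The count past the threshold, 4, all higher, moved with the setting. It was 3 under median centring, cyclic loess and the 8 arrays alone, 4 with the trend along probe number removed, 5 (4 higher, 1 lower) on the 12 arrays numbered 2 to 4, 6 (5 higher, 1 lower) under quantile normalization and 6 with a term for the arrays numbered 1. It was 13 (11 higher, 2 lower) without the dimmest 25% of probes, where 761 were tested, and 13 (11 higher, 2 lower) with the offset of 10. It was 14 (13 higher, 1 lower) with a variance trend and robust prior, 14, all higher, without small spherical replicates 3 and 4, 29 (28 higher, 1 lower) without small spherical 3 and filamentous 1, and 29 (26 higher, 3 lower) with array weights. With 1 array left out at a time it was 3 to 16 (3 to 16 higher, 0 to 1 lower): 16 without small spherical replicate 3 and 8 (7 higher, 1 lower) without filamentous replicate 1. The cause was not tested. In the fit with a replicate block it was 11 (10 higher, 1 lower); same-numbered arrays of the 2 stages correlated at 0.439, -0.000941, 0.0245 and 0.219 in their deviations, so the numbers were not taken as pairs.

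Differences that changed sign were small in the main fit and none had passed. PGR went to -0.01 under median centring, -0.33 under quantile normalization, -0.06 under cyclic loess, -0.08 with the offset, -0.28 on 12 arrays, -0.38 without small spherical 3 and filamentous 1 and -0.11 with the probe trend removed. PTGFR went to -0.01 under quantile normalization, -0.09 without small spherical 3 and filamentous 1, -0.05 with the probe trend removed and -0.28 without small spherical 3 and 4, and DPPA5 to -0.16 without small spherical 3 and filamentous 1 and -0.23 without small spherical 3 and 4. With 1 array left out at a time, PGR ranged from -0.38 to 0.67, PTGFR from -0.09 to 0.28, DPPA5 from -0.16 to 0.80, ENO1 from -0.01 to 0.14, IL2 from -0.14 to 1.07 and PABPC4 from -0.71 to 0.06. Scaling moved the share of higher probes among those with an unadjusted p below 0.05 from 64.7% to between 60.0% and 70.8%. Dim probes have no measured floor, and shared maxima limit the brightest.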

Other observations

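Several probes near the threshold carry no single gene symbol and are given by number. Probe 566 was lower on every tubular array (-0.70 ± 0.15, adjusted p = 0.0741), as was probe 457 (-0.99 ± 0.24, adjusted p = 0.0743). Probe 696, whose annotation names several genes, was higher on every tubular array (1.40 ± 0.32, adjusted p = 0.0743), of which replicates 2 and 4 read the highest value of their arrays, where signals can be saturated. Probes 954 and 910 differed by 1.60 ± 0.37 and 2.07 ± 0.49 with the same adjusted p. Probes 566 and 457 had smaller adjusted p-values than any lower probe with a single gene symbol.

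The share of probes higher at an unadjusted p below 0.05 varied along the probe numbers. It was 7.54% for probes 1 to 200, 3.55% for 201 to 400, 5.53% for 401 to 600, 10.6% for 601 to 800 and 9.55% for 801 to 1022. STAR (probe 1006) and probe 1010 lie in the last of these ranges and TGFB3 (probe 99) and PLAC1 (probe 79) in the first, and all 4 passed after a smooth trend along probe number was removed.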
